A study of Mus musculus with 6 samples.

Results

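miR-204 and miR-211 are closely related miRNAs that are made in the introns of 2 genes for TRPM ion channels. They were taken from small RNA sequencing of adult mouse brain by their names. Every listed miRNA of either name was kept, in both arms of its hairpin, which gave 4 of the 1055 mature miRNAs in the tables, namely miR-204, miR-204*, miR-211 and miR-211*. The libraries came from brains of female 129SV mice aged 5.5 months, 3 wild-type and 3 Adar2-/-. ADAR2 is an enzyme that converts adenosine to inosine in double-stranded RNA, and Adar2-/- mice lack it. Both genotypes also carried the pre-edited Gria2 allele in homozygous form, which keeps Adar2-/- mice alive. The wild-type mice are therefore controls on the Gria2 R/R background, they were siblings of the Adar2-/- mice, and each brain gave 1 library.

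A miRNA is cut from a hairpin precursor, and it silences mRNAs that pair with its seed, the bases near its 5′ end. The guide strand is the arm that is mostly kept in the silencing complex, and the star marks the arm that is mostly discarded. miR-204 is known from the choroid plexus, the epithelium in the brain ventricles that secretes cerebrospinal fluid, and from the retinal pigment epithelium. miR-211 is known from melanocytes and other pigmented cells, where its host gene Trpm1 is expressed. Whole brain holds little choroid plexus and few pigmented cells, and in a bulk sample fewer cells of a type cannot be told apart from less RNA per cell.

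The guide strands are nearly the same molecule, which bears on how their reads can be told apart. RefSeq (GRCm38.p6) holds all 4 mature sequences. The unstarred names were taken as the 5p arms and the starred names as the 3p arms. They are written 5′ to 3′ with the seed, bases 2 to 8, in capitals.
miR-204: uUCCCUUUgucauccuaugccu
miR-211: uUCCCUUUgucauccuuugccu
miR-204*: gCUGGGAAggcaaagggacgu
miR-211*: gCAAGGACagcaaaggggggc
miR-204 and miR-211 are 22 bases long and share their seed, UCCCUUU, which pairs with AAAGGGA in a target. They differ only by A17U, counted from the 5′ end of miR-204. Of 1679 different mature names in the RefSeq table, 3 have this seed, and the other is mmu-miR-7670-3p, which was not analysed here. The star arms differ from each other at 7 of 21 positions, by U3A, G4A, A8C, G9A, A18G, C19G and U21C, and have different seeds.

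The 2 hairpins are 68 and 106 bases long in RefSeq and were not aligned to each other. The mature arms are in capitals.
Mir204 hairpin: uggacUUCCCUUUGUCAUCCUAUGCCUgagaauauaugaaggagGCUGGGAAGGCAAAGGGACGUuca
Mir211 hairpin: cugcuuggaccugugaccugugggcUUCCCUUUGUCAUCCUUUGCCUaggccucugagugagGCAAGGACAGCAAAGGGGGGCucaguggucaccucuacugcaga
On NCBIM37, Mir204 lies on chromosome 19 from 22825095 to 22825162 and Mir211 on chromosome 7 from 71350692 to 71350797, both on the plus strand. The genome sequence at both places equals the RefSeq hairpin. Mir204 is intronic within Trpm3 (22213609 to 23064374) and Mir211 is intronic within Trpm1 (71298721 to 71414643), each on the strand of its host. No exon of any spanning transcript, 9 for Trpm3 and 10 for Trpm1, overlaps the hairpin. In the spanning transcript with the most exons of each host the hairpin lies in intron 6 of a gene model with 27 exons, an intron of 33462 bp in Trpm3 and of 3682 bp in Trpm1.

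miR-204 made up almost all reads of the group. Over the 6 libraries, which held 12449633 to 23935544 mapped miRNA reads each, it had 152906 reads, or 99.7% of the reads on the 4 arms. miR-211 had 241 reads, miR-204* had 194 and miR-211* had 12. Levels are reads for every 1000000 that mapped to any miRNA in that library (RPM). Where values are listed for each library they follow the replicate numbers 1 to 3 within a genotype. miR-204 reached 100 reads in every library and was tested with the 399 miRNAs that did so. miR-204* and miR-211 reached 10 reads in every library but 100 in none, and miR-211* stayed below 10 in each.

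**Figure D1:**
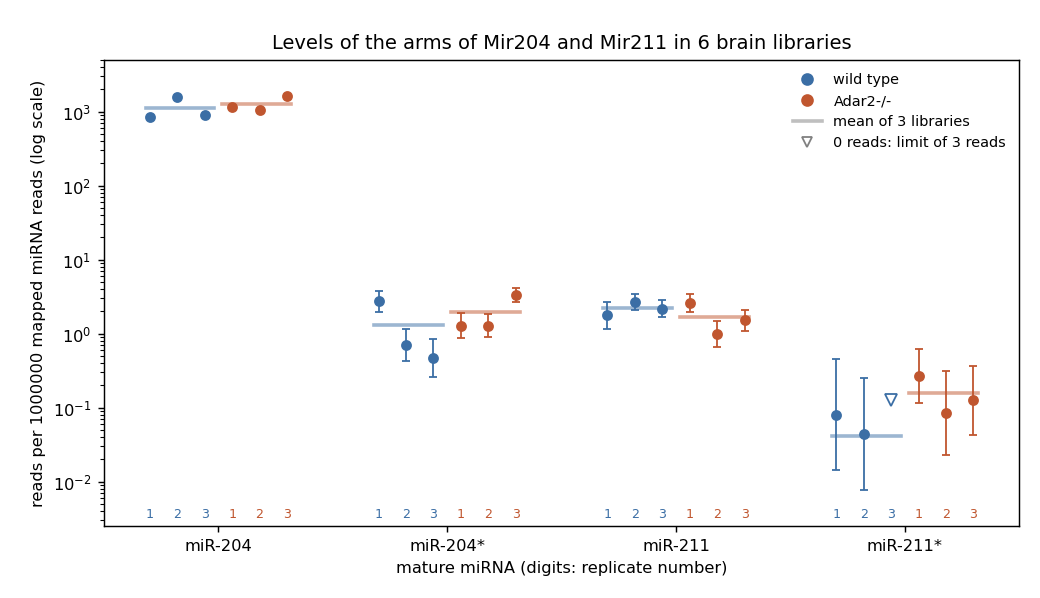
Level of each arm in RPM (log scale) in 3 wild-type and 3 Adar2-/- libraries, with 95% Wilson intervals as bars and the genotype mean as a line. miR-204 stands at 836 to 1621 RPM and every other arm at 3.30 RPM or less, and the genotypes overlap for miR-204, miR-204* and miR-211. The open triangle is the limit of 3 reads in the library without miR-211* reads.

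The wild-type libraries held miR-204, the guide strand of Mir204, at 836, 1581 and 892 RPM. The Adar2-/- libraries held it at 1162, 1063 and 1621 RPM. Wild-type replicate 2 and Adar2-/- replicate 3 were the high libraries, one in each genotype, and the genotypes overlapped. By abundance miR-204 ranked between 53 and 93 of the 1055 miRNAs. The highest library was 1.94-fold above the lowest, whereas the 95% Wilson interval of the lowest value ran from 820 to 852 RPM. These intervals cover counting error only, since reads are not independent molecules, and the libraries differed by far more than that.

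Between genotypes miR-204 was not distinguishable. Wild type averaged 1103 ± 415 RPM (SD, n = 3) and Adar2-/- averaged 1282 ± 297 RPM (SD, n = 3; two-sided exact permutation test, p = 0.5). With 3 libraries a genotype this test cannot give a p below 0.1. The edgeR quasi-likelihood test was run over the 399 miRNAs, and Benjamini-Hochberg adjusted values under 0.05 were called. It gave miR-204 a log2 fold change of 0.22 with a standard error of 0.366 (unadjusted p = 0.566, adjusted p = 0.989). In this test 0.0% of all miRNAs tested were called, and 13 of them (3.26%) had an unadjusted p under 0.05. DESeq2 called 1 miRNA, or 0.251%, which was not a member, and gave miR-204 a log2 fold change of 0.12 (adjusted p = 0.949). Adar2-/- replicate 3, the library with the highest miR-204, was also the one in which the 5 most abundant miRNAs took the smallest share of reads, 36.8% against 43.5% to 56.6% in the others. With library totals taken without these 5 miRNAs the log2 fold change of miR-204 was 0.13 (edgeR adjusted p = 0.962). Whether this share accounts for the high miR-204 level of Adar2-/- replicate 3 was not tested. Without that library the log2 fold change of miR-204 was 0.01.

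The spread of miR-204 between libraries was ordinary for this experiment. The SD of log2(RPM + 1) over the 6 libraries was 0.40, and the median over the 399 miRNAs was 0.43. A lower SD was found for 42.9% of them. Within genotypes the SD was 0.42, against a median of 0.44.

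**Figure D2:**
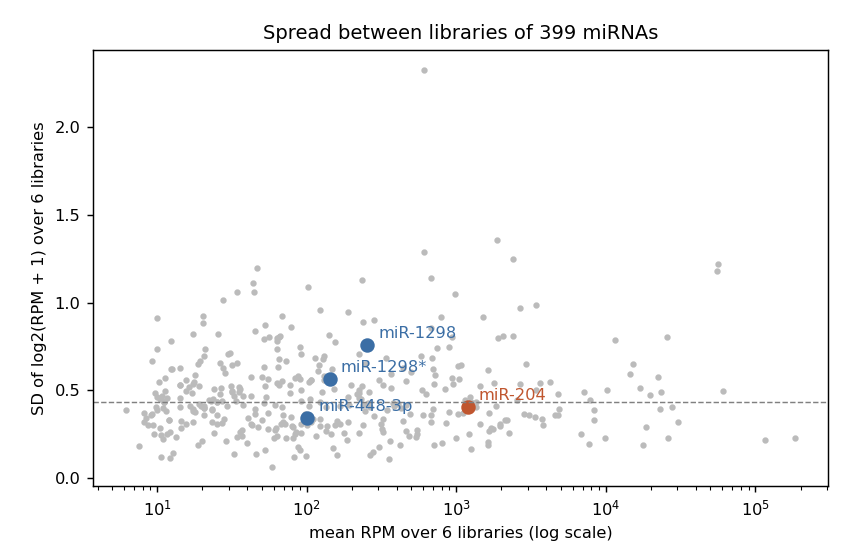
SD of log2(RPM + 1) over 6 libraries against the mean RPM (log scale) for the 399 tested miRNAs. miR-204 (red) lies just under the dashed median of 0.43. Among the tested miRNAs of the Htr2c list (blue) miR-1298 and miR-1298* lie above it at 0.76 and 0.56, and miR-448-3p lies below it at 0.34.

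miR-204*, the star arm, was rare. The wild-type libraries had 34, 16 and 11 reads of it, which is 2.73, 0.702 and 0.469 RPM. The Adar2-/- libraries had 24, 30 and 79 reads, which is 1.29, 1.27 and 3.30 RPM. The high libraries were wild-type replicate 1 and Adar2-/- replicate 3, so the star arm did not share both of its high libraries with its guide. Wild type averaged 1.30 ± 1.24 RPM (SD, n = 3) and Adar2-/- averaged 1.95 ± 1.17 RPM (SD, n = 3), and the genotypes overlapped (two-sided exact permutation test, p = 0.5). With a minimum of 10 reads, which brought 608 miRNAs into the edgeR fit, the log2 fold change of miR-204* was 0.68, with a standard error of 0.636 (adjusted p = 0.982). In that fit 0.0% were called and 3.29% had an unadjusted p under 0.05. It was 1.74 without wild-type replicate 1 (unadjusted p = 0.0108, adjusted p = 0.735 in edgeR) and 0.06 without Adar2-/- replicate 3, so that single libraries decided its size.

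The arms of Mir204 differed widely in abundance. Pooled over the libraries there were 1.27 miR-204* reads per 1000 miR-204 reads. Among the 174 pairs of a tested miRNA and its own star the median was 15.3, and 30 pairs (17.2%) had a lower value. By library the value was 3.27, 0.444 and 0.525 per 1000 among wild-type brains and 1.11, 1.20 and 2.04 among Adar2-/- brains. Wild-type replicate 1 was above every Adar2-/- library, and the other wild-type libraries were below them. The log2 ratio of star to guide averaged -10.10 ± 1.60 (SD, n = 3) for wild type and -9.49 ± 0.48 (SD, n = 3) for Adar2-/-, a difference of 0.61 (two-sided exact permutation test, p = 0.6).

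miR-211, the guide strand of Mir211, was near the low end of detection. The wild-type libraries had 22, 61 and 51 reads of it, which is 1.77, 2.68 and 2.17 RPM. The Adar2-/- libraries had 48, 23 and 36 reads, which is 2.57, 0.975 and 1.50 RPM. Adar2-/- replicates 2 and 3 were the lowest, and Adar2-/- replicate 1 lay inside the wild-type range. Wild type averaged 2.21 ± 0.456 RPM (SD, n = 3) and Adar2-/- averaged 1.68 ± 0.815 RPM (SD, n = 3; two-sided exact permutation test, p = 0.4). At the minimum of 10 reads the edgeR estimate on the log2 scale was -0.41, with a standard error of 0.417 (adjusted p = 0.982). Without Adar2-/- replicate 1 it was -0.84 and without Adar2-/- replicate 2 it was -0.13.

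In mean level miR-204 stood 613-fold above miR-211, and the lowest library of miR-204 was 253-fold above the highest value of any other arm. Over all 6 libraries miR-211 and miR-204* stood at 1.95 ± 0.656 and 1.63 ± 1.14 RPM (SD, n = 6) and overlapped, so their order is not set. Below them was miR-211*, with 1, 1 and 0 reads in the wild-type libraries and 5, 2 and 3 reads in the Adar2-/- libraries. In wild-type replicate 3, 3 reads correspond to 0.128 RPM, the level that a count of 0 still allows. The genotypes did not overlap in RPM for miR-211*, as for 3.93% of the 1042 miRNAs with any read that were higher in Adar2-/- in this way (two-sided exact permutation test, p = 0.1). An edgeR fit with no minimum count gave miR-211* an unadjusted p of 0.0885 and an adjusted p of 0.988. With at most 5 reads in any library the depth was too low to size a difference, and no fold is given.

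As the guide strands differ by 1 base and the authors' mapping allowed up to 2 mismatches, a miR-204 read with U in place of A at base 17 equals miR-211. No other mature sequence in the RefSeq table came within 2 differences of either guide over at least 18 bases. Pooled over the libraries, 1.58 miR-211 reads were counted per 1000 miR-204 reads. By library the value was 2.11, 1.69 and 2.44 among wild-type brains and 2.21, 0.917 and 0.928 among Adar2-/- brains. The log2 ratio averaged -8.92 ± 0.26 (SD, n = 3) for wild type and -9.66 ± 0.73 (SD, n = 3) for Adar2-/-, a difference of -0.74, and Adar2-/- replicate 1 fell within the wild-type range (two-sided exact permutation test, p = 0.3). The difference was -1.16 without Adar2-/- replicate 1 and -0.41 without replicate number 3. As a share of the reads on both guides, miR-211 took 0.243% (95% Wilson interval 0.185% to 0.319%) in wild-type replicate 3 and 0.0927% (0.0670% to 0.128%) in Adar2-/- replicate 3. These intervals hold counting error and not the spread between brains. How many of the miR-211 reads are misread miR-204 was not tested, since the tables hold counts and no reads. With both guides summed into 1 entry the edgeR log2 fold change was 0.22, as for miR-204 alone.

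**Figure D3:**
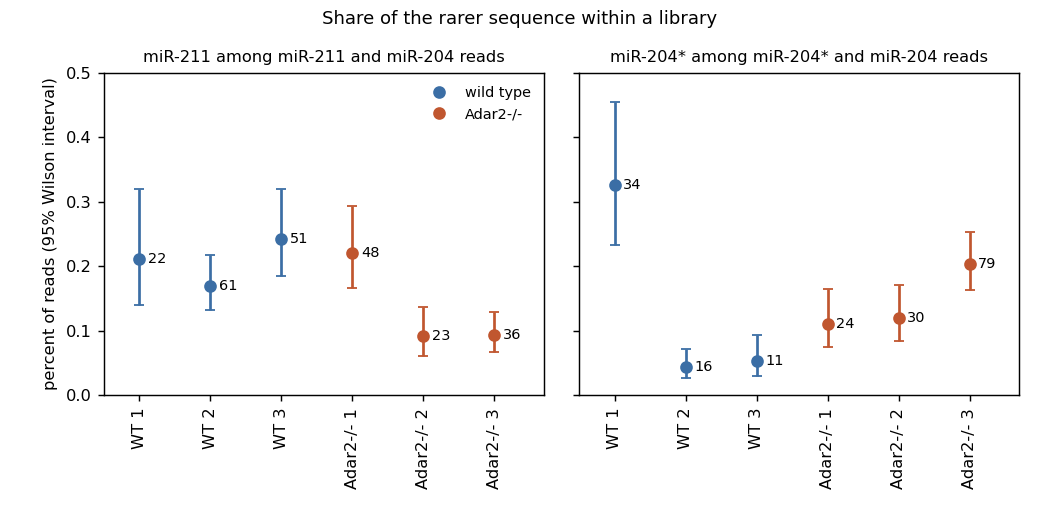
Percent of reads on miR-211 among miR-211 and miR-204 (left) and on miR-204* among miR-204* and miR-204 (right) in each library, with 95% Wilson intervals as bars and the number of reads of the rarer sequence beside each point. miR-211 stays between 0.0916% and 0.243%, lowest in Adar2-/- replicates 2 and 3, and miR-204* is highest in wild-type replicate 1.

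Whether miR-204 followed the amount of choroid plexus was examined with miRNAs of the Htr2c introns, a serotonin receptor gene that is strongly expressed in choroid plexus and also in neurons. The list held 10 arms of miR-448, miR-764, miR-1264, miR-1298 and miR-1912, and each had reads in every library. The wild-type libraries summed to 422, 752 and 677 RPM and the Adar2-/- libraries to 255, 541 and 472 RPM. The averages were 617 ± 173 and 423 ± 149 RPM (SD, n = 3 each), and the genotypes overlapped (two-sided exact permutation test, p = 0.3). The difference of -194 RPM was -292 RPM without wild-type replicate 1, -127 RPM without wild-type replicate 2 and -111 RPM without Adar2-/- replicate 1. Without miR-1298, its most abundant member, the list stood at 280.2, 304 and 347 RPM in wild type and at 147, 271 and 242 RPM in Adar2-/-, so the genotypes did not overlap (difference -90.5 RPM, two-sided exact permutation test, p = 0.1, the smallest this test can give). Most of that sum was miR-1298* and miR-448-3p, with wild-type means of 174 and 115 RPM out of 311 RPM. Of the 399 tested miRNAs 3.01% were lower in Adar2-/- without overlap, and these included miR-1298*. The whole list was lowest in Adar2-/- replicate 1, where miR-204 was close to its median.

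Of the 10 arms, 3 entered the test over 399 miRNAs and 0 were called, with 0.0% called over all, and 0 had an unadjusted p under 0.05. The log2 fold change ± standard error was -0.60 ± 0.479 for miR-1298, the most abundant, -0.66 ± 0.360 for miR-1298* and -0.42 ± 0.319 for miR-448-3p, each with an edgeR adjusted p of 0.988. The unadjusted p of miR-1298* was 0.0961 in this fit, 0.0272 with library totals taken without the 5 most abundant miRNAs and 0.00798 under DESeq2 (adjusted p = 0.303). Their median was -0.60, beside 0.0023 over the 399 miRNAs, of which 198 were below 0. Wild-type and Adar2-/- levels of miR-1298 averaged 306 ± 155 and 203 ± 83.9 RPM, and those of miR-448-3p 115 ± 24.7 and 86.2 ± 15.1 RPM (SD, n = 3 each). miR-1298* averaged 174 ± 32.2 and 110.2 ± 40.4 RPM (SD, n = 3 each), and its genotypes did not overlap, as for 3.01% of the 399 miRNAs that were lower in this way. The other 7 arms had mean levels in wild type of at most 7.85 RPM (miR-1912), and the genotypes overlapped for each of them. Unlike the 3 tested arms, miR-448-5p, miR-764-3p, miR-764-5p, miR-1264-3p and miR-1912* had higher means in Adar2-/-. Wild-type and Adar2-/- means were 1.26 and 1.97 RPM for miR-448-5p. For miR-1264-5p they were 3.89 and 3.93 RPM, and for miR-1912 7.85 and 7.61 RPM.

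No relation between miR-204 and the list was detected across the libraries. Over the 6 libraries Pearson's r of log2(RPM + 1) was 0.14 (exact permutation p = 0.819, adjusted 0.894 over 12 relations) and Spearman's rho was 0.14 (exact permutation p = 0.803, adjusted 0.876). Without wild-type replicate 2 and Adar2-/- replicate 3, the libraries farthest from the median of miR-204, r was -0.57, over a range of miR-204 that this choice narrows. The genotypes are mixed in these values. With deviations from the genotype means, permuted within genotypes over 36 arrangements, r was 0.43 (exact permutation p = 0.444, adjusted 0.879), and r was 0.71 among the 3 wild-type and 0.15 among the 3 Adar2-/- libraries. miR-204 divided by the summed list was 1.98, 2.10 and 1.32 among wild-type brains and 4.55, 1.96 and 3.44 among Adar2-/- brains. The genotypes overlapped, with a difference of 0.83 on the log2 scale (two-sided exact permutation test, p = 0.3). Thus miR-204 is known from the choroid plexus, but that its level tracks this list was not shown by these 6 libraries. For miR-211 against miR-204 r was 0.15 (exact permutation p = 0.797, adjusted 0.894), and for miR-204* it was 0.13 (exact permutation p = 0.8, adjusted 0.894).

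Of the 12 relations of miR-204 with the other arms and with the marker lists of 10 tissues or cell types, 0 passed after adjustment. The largest were those with the neuron list (15 arms, led by miR-138) and with the vessel list (6 arms, led by miR-126-3p). For the neuron list r was 0.86 (exact permutation p = 0.05, adjusted 0.300) and rho was 0.83 (exact permutation p = 0.0583, adjusted 0.350), and r was 0.39 over the 4 libraries left without the 2 farthest from the median of miR-204. For the vessel list r was -0.79 (exact permutation p = 0.0472, adjusted 0.300) and rho was -0.89 (exact permutation p = 0.0333, adjusted 0.350), and r was -0.50 without those libraries. Within genotypes, tested as for the Htr2c list, r was 0.84 for the neuron list (exact permutation p = 0.0833, adjusted 0.879) and -0.75 for the vessel list (exact permutation p = 0.25, adjusted 0.879). Among the 3 wild-type and the 3 Adar2-/- libraries alone r was 1.00 and 0.71 for the neuron list and -0.75 and -0.76 for the vessel list. Of the 12 relations 0 had an unadjusted p under 0.05 within genotypes, where the smallest possible p is 0.0278. The neuron list summed to 30225 to 50439 RPM in wild type and 31779 to 58728 RPM in Adar2-/-, and the vessel list to 52643 to 80301 and 50324 to 61662 RPM. No member of either list was at 0 in any library.

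**Figure D4:**
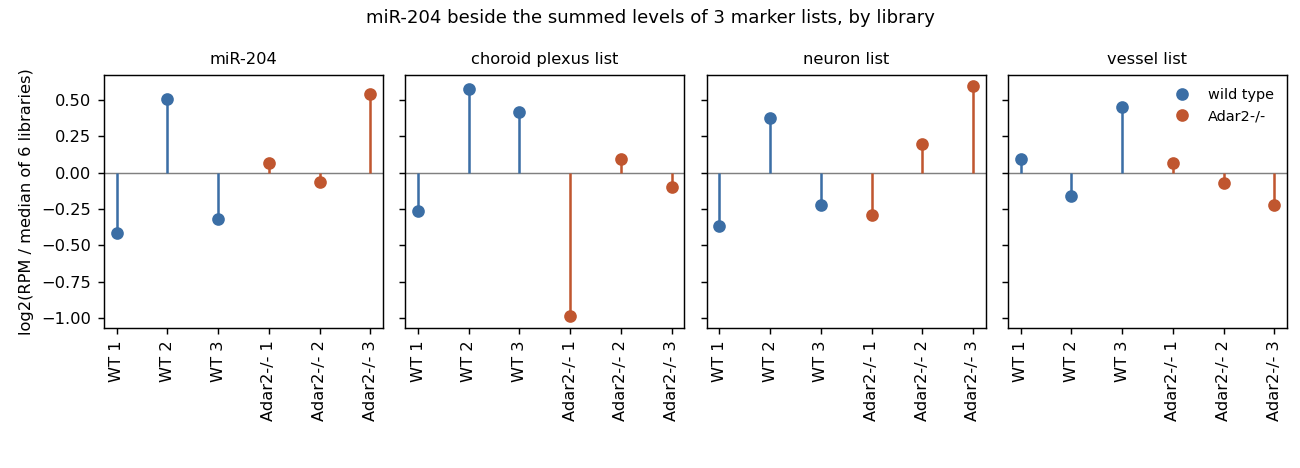
Level of miR-204 and summed levels of the choroid plexus, neuron and vessel lists in each library, as log2 of the RPM over the median of the 6 libraries. miR-204 is highest in wild-type replicate 2 and Adar2-/- replicate 3, like the neuron list. The choroid plexus list is also highest in wild-type replicate 2 but is lowest in Adar2-/- replicate 1. No relation passed adjustment.

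For the other lists no relation with miR-204 was detected over the 6 libraries. The epithelial list (10 arms, led by miR-200b) stood at 4889 to 6460 RPM in wild type and 754 to 9311 RPM in Adar2-/-, with the lowest value in Adar2-/- replicate 3. The pineal and retinal list (6 arms, led by miR-182) stood at 108157 to 155375 and 19159 to 186904 RPM, again lowest in that library, where miR-204 was highest. miR-182 and miR-183 of this list, at means of 56300 and 55650 RPM, were among the 5 most abundant miRNAs. Its low sum and the low share of those 5 in Adar2-/- replicate 3 are therefore not separate observations. RPM are shares of a library total, and how far this shaped r with miR-204 was not tested. The list averaged 112141 RPM over the 6 libraries, above the neuron list at 41510 RPM. Whether its sum reflects pineal or retinal tissue was not tested. Over the 6 libraries r with miR-204 was -0.57 (exact permutation p = 0.331, adjusted 0.894) for the epithelial list and -0.41 (exact permutation p = 0.522, adjusted 0.894) for the pineal and retinal list. Within wild type and within Adar2-/-, over 3 libraries each, r was -0.40 and -0.91 for the epithelial list. It was 0.98 and -0.87 for the pineal and retinal list. The multiciliated cell list (8 arms, led by miR-34c), whose cells line the ventricles and the choroid plexus, stood at 295 to 411 and 287 to 487 RPM. At 0 in some libraries were miR-449a* and miR-449c of this list, miR-429* of the epithelial list, and miR-182* and miR-96* of the pineal and retinal list. For the multiciliated list r with miR-204 was -0.02 (exact permutation p = 0.969, adjusted 0.969). The remaining lists ranged from 1302 to 7527 RPM for neuroendocrine and pituitary cells, from 1910 to 4097 RPM for blood, from 1293 to 1783 RPM for oligodendrocytes and from 2263 to 3398 RPM for muscle and liver. Their r with miR-204 ran from -0.38 for blood to 0.22 for muscle and liver, each with an exact permutation p adjusted to 0.894. For oligodendrocytes r was 0.01 within wild type alone and 0.98 within Adar2-/- alone.

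Among the 398 other tested miRNAs the patterns most like that of miR-204 over the 6 libraries belonged to miR-345-5p (Pearson's r = 0.96), miR-92b (0.95), miR-431* (0.94), miR-133a (0.93) and miR-3099 (0.90). They were picked as the highest values, so these are descriptions. miR-345-5p ranged from 103 to 164 RPM and shared its 2 high libraries with miR-204. miR-133a, a miRNA of muscle, ranged from 47.6 to 273 RPM, whereas the summed muscle and liver list that holds it had an r of 0.22. In the same ranking miR-1298 came at place 102, miR-448-3p at place 151 and miR-1298* at place 266. For miR-211 the most similar were miR-3066 (r = 0.82), miR-495* (0.78), miR-760-3p (0.78), miR-150 (0.76) and miR-19a (0.74), none of them in the list for miR-204. The counting error of miR-211 limits this second ranking, as does the unknown number of misread miR-204 reads within its count.

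**Figure D5:**
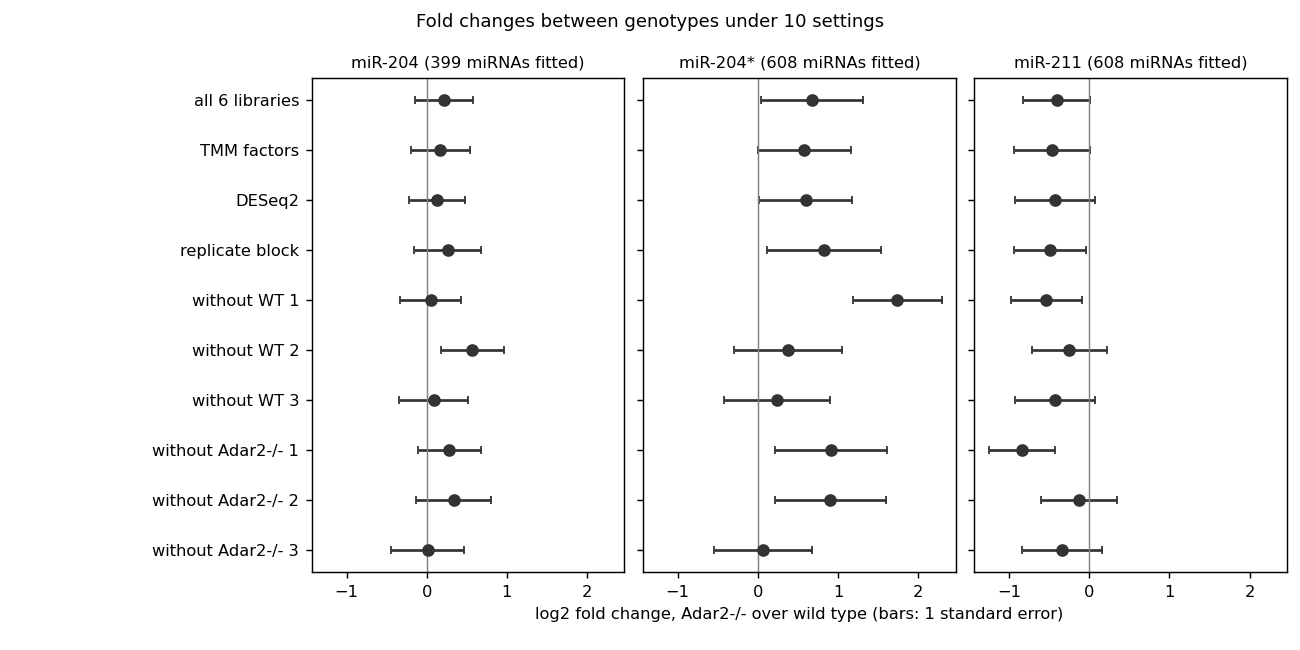
Log2 fold change of Adar2-/- over wild type for miR-204, miR-204* and miR-211 under 10 settings, with bars of 1 standard error. miR-204 stays between 0.01 and 0.57, miR-211 is below 0 throughout, and miR-204* moves to 1.74 without wild-type replicate 1.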

How the data were processed

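The authors deposited 3 tables of raw read counts per mature miRNA, each with 1 wild-type and 1 Adar2-/- library. They clipped adaptors with Cutadapt, mapped with NextGenMap to miRBase sequences with up to 2 mismatches, dropped reverse-strand hits and weighted reads with several equal hits, which could split reads of near-identical miRNAs. Versions of Cutadapt and NextGenMap are not given in the sources used here. After 12 blank lines were removed, counts were divided by total mapped miRNA reads (RPM). edgeR 4.0.16 (R 4.3.3) tested genotype on the counts with these totals, no scaling factor and no block, for miRNAs whose count reached 100 in every library. Exact tests used scipy 1.17.1, numpy 2.4.6 and pandas 2.3.3 in Python 3.11.15. Figures used matplotlib 3.10.9. Alternatives were DESeq2 1.42.0, TMM factors, library totals computed after leaving out the 5 most abundant miRNAs, other minimums, a replicate block, both guides summed, and left-out libraries or replicate numbers. Fits at 10 reads with other scalings or fewer libraries, the ratio to the choroid plexus list, and relations within genotypes were added after the data were seen. Procedures were tested on simulated data.

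The members and lists were chosen with earlier results of these data known. The named miRNAs are the 4 members, the Htr2c list, the 5 most like miR-204 and miR-211 each, and each list's most abundant member. The submitters' processing notes name mm9, which is NCBIM37, and positions are from the GENCODE annotation of that build. Separate libraries are separate brains. The p-values of the genotype tests weigh a difference against the spread between brains, and those of the relations come from permuting libraries. Adar2 mRNA was not analysed here, so the genotype labels were not checked.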

Additional observations from a re-analysis of the deposited data

How the results depend on the processing

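Of 132 alternative values of the members, their ratios and the choroid plexus list, 6 changed direction, each with a library left out. Only the 46 from edgeR or DESeq2 could pass the threshold, and 0 did. The other 86 come from exact tests whose p cannot go below 0.1, so their p-values say nothing of stability. The log2 fold change of miR-204 ran from -0.12 (without replicate 3) to 0.69 over the fits with libraries left out singly or by replicate number, and the difference in its mean level from -95.5 to 528 RPM. In the same way the difference in mean level ran from -0.437 to 1.70 RPM for miR-204*, with -0.0211 RPM without Adar2-/- replicate 3, and from -1.19 to 0.0692 RPM for miR-211. The log2 ratio difference ran from -0.066 to 1.69 for miR-204* to miR-204, and from -1.16 to -0.41 for miR-211 to miR-204. The numbers of miRNAs called over all miRNAs were 0 to 18 when libraries or replicate numbers were left out (18 without replicate 1), and 1 under DESeq2 at a minimum of 100 or of 10 reads, against 0 in edgeR with 13 at an unadjusted p under 0.05. Ranked by Spearman's rho, 2 of the 5 miRNAs most like miR-204 stayed among the first 5. Same-numbered libraries did not deviate together over the 399 miRNAs (r of deviations 0.0010, -0.08 and -0.01 for numbers 1 to 3). Each number is 1 deposited table with 1 library of each genotype, so these values cannot show whether the samples were paired. With the replicate block the log2 fold change of miR-204 was 0.26, or 0.27 with TMM factors, and no call changed. The block could not be run for the level of miR-211*, which has a library at 0. Counts of 11 to 79 reads limit what can be said of miR-204* and miR-211.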
